A study of Mus musculus with 30 samples.

Results

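The comparison of wild type back skin 6 days after TPA with the same skin 4 days after it covered 6 of the 30 arrays of the series, the 3 wild type arrays of day 4 and the 3 of day 6. They were chosen by genotype and day alone, and every probe set was compared. The mice were female, of a mixed 129–C57BL/6 strain and 8 to 12 weeks old. Shaved back skin received 3 applications of the phorbol ester TPA (50 µM in acetone) at intervals of 24 h and was taken 1, 2, 4 or 6 days later, while controls, called day 0, received acetone alone. The series holds 10 groups of 3 mice, wild type or deficient for the chemokine-scavenging receptor D6 (Ccbp2 on the array) at each of the 5 times, and each array carried RNA of 1 mouse. The RNA was of whole skin, so each value averages epidermis, hair follicles, dermis, fat, muscle and infiltrating cells, and fewer cells of a type and less RNA per cell cannot be told apart.

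TPA switches on protein kinase C in keratinocytes and gives a short irritant dermatitis. Keratinocytes and resident cells release chemokines that call in neutrophils and monocytes, and the epidermis thickens and replaces the proteins of normal cornification with stress keratins and small proline-rich proteins. Resolution is the phase in which chemokine production stops, the infiltrate clears and normal epidermal differentiation returns. Hair follicles run through a cycle of rest, growth and regression, and make hair keratins and pigment in the growth phase.

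Each array held 45101 probe sets with 1 RMA intensity each, here on the log2 scale. Each of the 6 arrays correlated with the others of its group at a mean r of 0.989 to 0.992. Day 4 mouse 2 had the lowest score of its group on the first principal component, at 45.3 against 62.5 and 75.1. The day 6 arrays lay between -32.0 and -7.66. Hybridization controls averaged 10.41 on day 4 mouse 2 and 10.51 on day 6 mouse 1, against 10.93 to 11.10 on the other 4. For these 2 arrays, differences of the mouse and of the hybridization cannot be told apart. Of 3 D6 probe sets, the one that told the genotypes apart best was at 5.76, 5.08 and 5.48 in wild type mice of day 4. It averaged 3.55 in D6-deficient mice of that day. The brightest one did not tell them apart, at means of 7.80 and 7.74. From day 4 to day 6 in wild type skin they changed by -0.82 and -0.73 (limma adjusted p = 0.0176 and 0.0353). The remaining probe set gave -0.58 (limma adjusted p = 0.0564). Markers of the main cell types of skin were bright at day 4, such as Krt5 of basal keratinocytes at 12.40 ± 0.17 (SD, n = 3), Col1a2 of fibroblasts at 13.65 ± 0.22, Adipoq of adipocytes at 12.58 ± 0.37 and Acta1 of skeletal muscle at 14.07 ± 0.06.

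Of 36029 probe sets tested, 7956 (22.1%) differed between day 4 and day 6 at an adjusted p under 0.05 in limma, 4343 higher at day 6 (12.1%) and 3613 lower (10%). A difference of more than 3-fold as well was met by 336 higher (0.933%) and 395 lower (1.1%). In 728 of these 731 (2.03% of all tested) the arrays of the days did not overlap, where over all probe sets 20.3% lay wholly higher and 17.6% wholly lower. Counted by gene, with the brightest probe set standing for a gene, 2680 of 17772 were higher (15.1%) and 1936 lower (10.9%), 250 (1.41%) and 276 (1.55%) of them by more than 3-fold. The median gene moved by 0.02. The methods' t-test gave 338 and 389 probe sets past 3-fold at its unadjusted p, and 143 and 252 after Benjamini-Hochberg adjustment.

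Genes of the growing hair follicle and of differentiated epidermis made up most of the 12 largest increases. They were the inner root sheath keratins Krt25, Krt73, Krt28, Krt27 and Krt71, the hair cortex keratin Krt35, the hair cuticle protein S100a3, the epithelial metallothionein Mt4, the suprabasal keratin Krt77, the protease inhibitor Serpinb12, neuronatin (Nnat) and the cytochrome Cyp2e1. Their rises ran from 4.90 (Serpinb12) to 8.43 (Krt25). Ranked by the probe set with the largest change, the 12 largest decreases were the neutrophil chemokines Cxcl5, Cxcl1 and Cxcl3, the acute-phase proteins Saa1, Saa2 and Saa3, lipocalin 2 (Lcn2, which binds bacterial iron carriers), the collagenase Mmp13, the myeloid lectin Clec4d, lubricin (Prg4), urate oxidase (Uox) and the cornified envelope precursor Sprr2f. Their changes ran from -5.24 (Sprr2f) to -8.34 (Cxcl5). The ranked probe sets of Saa1 and Saa2 may share signal with related genes, and another Saa1 probe set gave -6.14. On its brightest probe set Cxcl1 changed by -4.72, less than Clec4e (-5.20), and would not be among the 12. The lower day of several of these genes was close to the lowest mean intensity kept (3.72), such as 3.88 for Krt25 and 3.75 for Krt28 at day 4 and 3.60 for Cxcl3 at day 6. The deposited intensities carry no flag for background, so the size and order of such changes are uncertain.

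**Figure D1:**
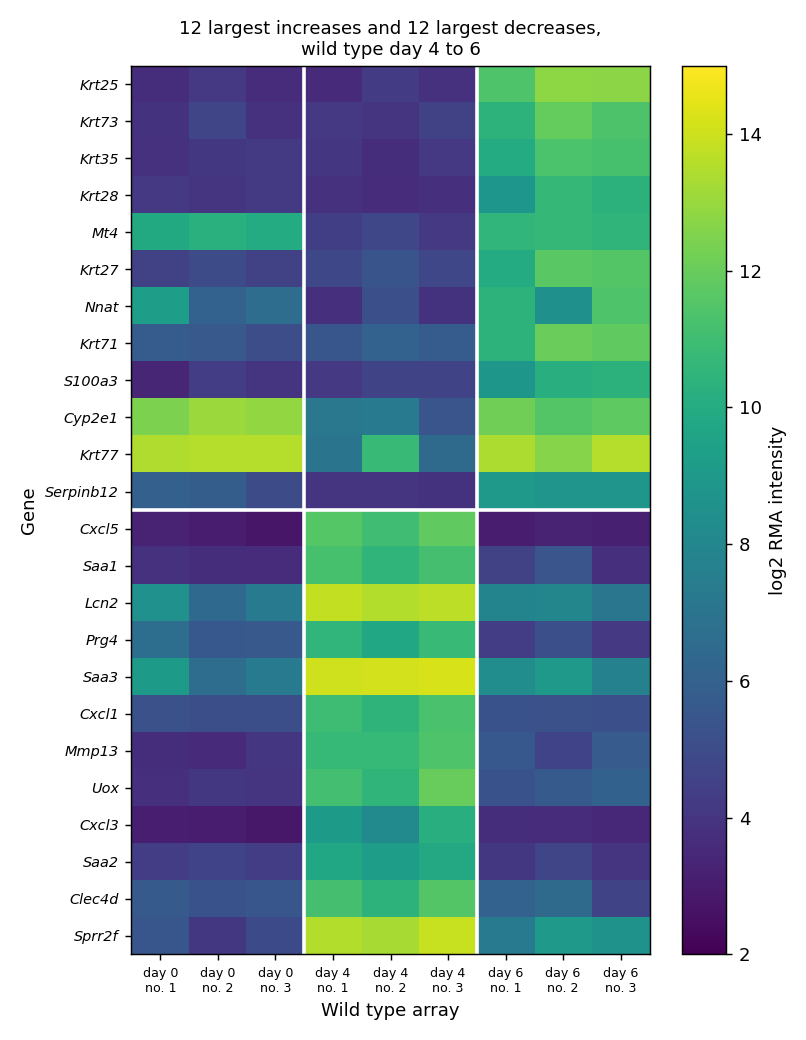
Heat map of the log2 RMA intensity of the 12 genes with the largest increase (upper block) and the 12 with the largest decrease (lower block), with 1 column for each wild type array of days 0, 4 and 6 (no. is the mouse). Most decreasing genes were low at both day 0 and day 6. Among the increasing genes, Mt4, Cyp2e1 and Krt77 were also bright at day 0 and the hair keratins were not.

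Chemokine ligands fell, and Cxcl5 changed most. Cxcl5, which attracts neutrophils through Cxcr2, was at 11.60, 11.04 and 11.82 on the arrays of day 4 and at 3.04, 3.22 and 3.16 on those of day 6. The day 6 arrays lay within the range of the acetone controls (3.31, 3.00 and 2.80), far below every day 4 array. The fall was 8.34 ± 0.36 on the log2 scale (SE, limma adjusted p = 2.65e-13). The day 6 arrays were below the lowest mean kept, and the probe set passed that filter through its bright groups, so the fall is of uncertain size. Wild type skin had averaged 3.24 at day 1 and 4.64 at day 2.

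Cxcl1, another Cxcr2 ligand, was at 10.96, 10.44 and 11.28 at day 4 and at 5.26, 5.23 and 5.18 at day 6, beside 5.23, 5.12 and 5.11 in acetone skin. Its change was -5.67 ± 0.28 on this probe set, -4.72 on the brightest one and -1.84 on the other. Cxcl3 was at 9.08, 8.16 and 10.17 and then at 3.72, 3.63 and 3.47, with no overlap. Ppbp, a platelet chemokine of the same family, changed by -5.19 ± 0.27 (adjusted p = 4.68e-12). Of 34 chemokine ligands tested, 21 were lower at day 6 (61.8%, against 10.9% of all genes), 15 of them by more than 3-fold. The other 13 did not pass the test. The list's median change was -1.21.

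Cxcl1, Cxcl2 and Cxcl3 are neighbours on mouse chromosome 5, and their promoters are shown for the letters they share. RefSeq windows from 250 bases before to 50 after the start (build GRCm38.p6, 27025 genes) were searched on both strands for GGGA, any 2 bases, then TTCC, a form of the NF-κB site. It was found in 5 of the 25 tested chemokine ligands that have a window (20%) and in 1.63% of all genes. The stretches below, all on the plus strand, are chr5:90891135-90891254 (Cxcl1), chr5:90903763-90903882 (Cxcl2) and chr5:90785989-90786108 (Cxcl3), with the match in capitals. Cxcl2, which was picked after its value was seen, changed by -4.12 ± 0.66.
Cxcl1: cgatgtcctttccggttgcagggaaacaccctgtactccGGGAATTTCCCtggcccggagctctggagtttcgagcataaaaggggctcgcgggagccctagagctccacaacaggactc
Cxcl2: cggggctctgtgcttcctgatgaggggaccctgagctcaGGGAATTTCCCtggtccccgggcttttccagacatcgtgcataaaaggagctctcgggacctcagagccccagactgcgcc
Cxcl3: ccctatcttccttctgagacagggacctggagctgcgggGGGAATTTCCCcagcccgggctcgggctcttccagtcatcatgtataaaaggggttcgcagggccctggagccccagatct
The letters matched on both strands, so that each stretch holds 2 overlapping matches. This describes the sequence, and binding of a factor was not measured.

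Among cytokines, Il6, an inducer of the acute phase, was at 10.15, 9.60 and 10.76 at day 4 and at 6.00, 5.11 and 4.28 at day 6. The days were far apart, and the day 6 mean was 1.28 above acetone skin (adjusted p = 0.0189). The change was -5.04 ± 0.39 (adjusted p = 2.3e-09). Il1b, made mainly by myeloid cells, was at 11.70, 11.79 and 11.84 and then at 8.12, 8.09 and 7.58. Csf3, which drives neutrophil production, was at 7.96, 6.92 and 8.21 and then at 3.68, 3.75 and 3.61. Those day 6 arrays lay within the acetone range of 3.53 to 3.85. The Csf3 means of day 6 (3.68) and acetone skin (3.67) were below the lowest mean kept (3.72), so the size of its fall is uncertain. Il1b and Csf3 both fell without overlap between the days.

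Of 29 inflammatory cytokines tested, 12 were lower (41.4%, against 10.9% of all genes) and 1 higher (3.45%, against 15.1%), with a median of -0.41. The higher one was Il18 (0.63, adjusted p = 0.0276), whose adjusted p rose to between 0.054 and 0.116 on leaving out any array other than day 4 mouse 2. Tnf moved from 6.52 to 5.98 (-0.54 ± 0.13, adjusted p = 0.00361). Il1a (-0.52, adjusted p = 0.213), Il17a (-0.53, adjusted p = 0.411), Il15 (0.04) and Il20 (-0.01) did not pass the test.

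**Figure D2:**
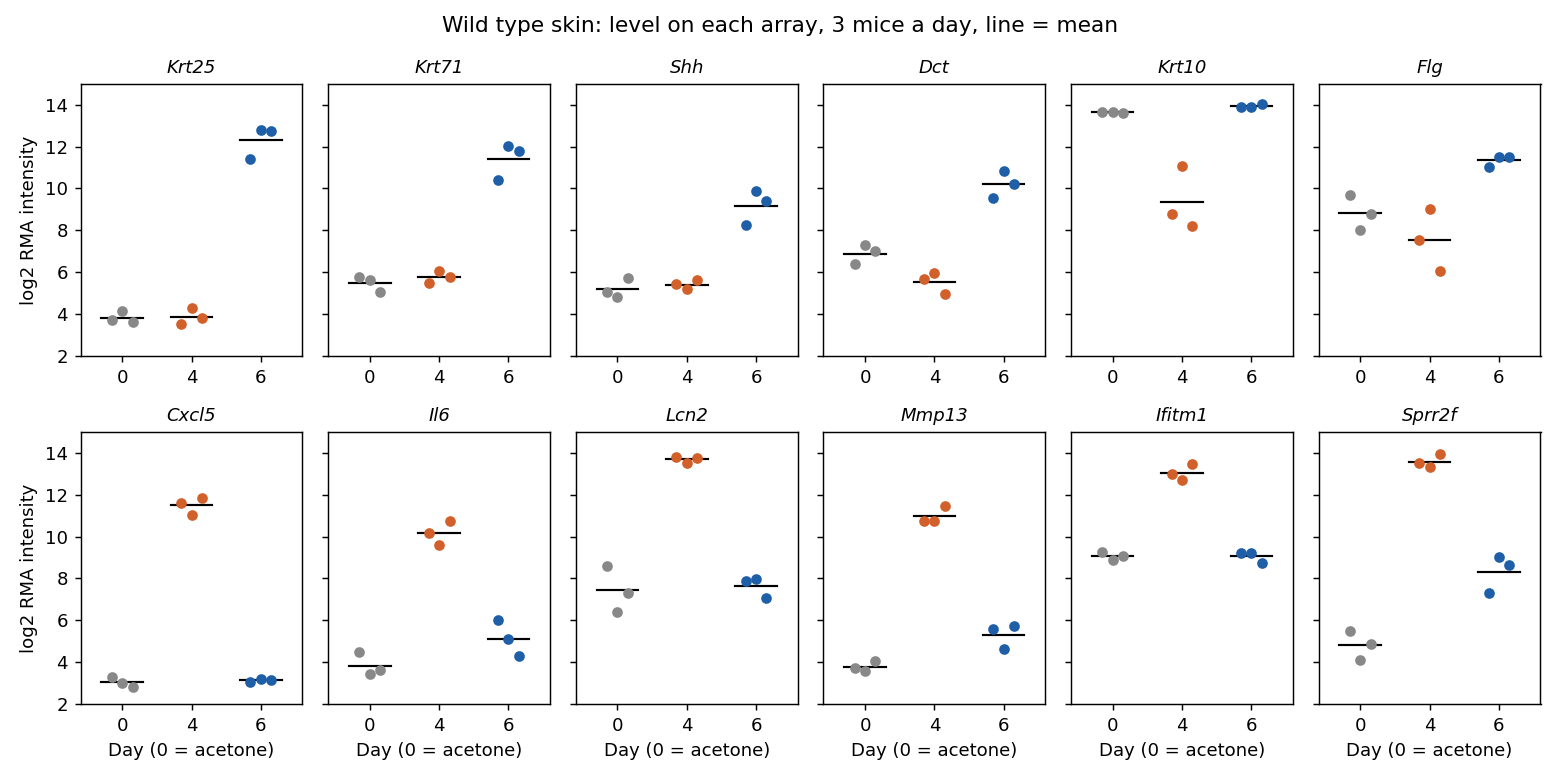
Log2 RMA intensity of 12 genes on every wild type array of day 0 (grey), day 4 (orange) and day 6 (blue), with the mean as a line. Day 4 and day 6 do not overlap in any panel. At day 6, Sprr2f, Flg, Mmp13, Krt10, Krt25, Krt71, Shh and Dct are above every day 0 array.

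Neutrophil markers fell beside the chemokines. Cxcr2, the receptor for these ligands, was at 9.44, 8.63 and 9.59 at day 4 and at 6.10, 6.44 and 6.24 at day 6, overlapping the acetone arrays (6.39, 6.06 and 6.14). The change was -2.96 ± 0.19 (adjusted p = 1.92e-10). The lectins Clec4d (-5.29) and Clec4e (-5.20), which sense microbial and damaged cells, fell further. S100a8, a calprotectin subunit that inflamed keratinocytes also make, was at 14.34, 14.19 and 14.48 and then at 11.79, 12.20 and 12.13. Those day 6 arrays were still above the acetone arrays of 11.15, 7.74 and 8.23, which spread widely.

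Of 25 neutrophil markers, 16 were lower (64%, against 10.9% of all genes) and 1 higher (4%, against 15.1%), with a median of -2.80. The higher one was the granule protease Ctsg (1.08, adjusted p = 0.0255), which lost that call without day 4 mouse 1 (0.0602), day 4 mouse 3 (0.096) or day 6 mouse 1 (0.134). The summed linear intensity of the markers was 84069 to 106901 at day 4 and 23262 to 33273 at day 6, against 4416 to 9780 in acetone skin. That sum rests on the brightest genes, and the median marker was 3.84 above acetone skin at day 4 and 0.28 above it at day 6.

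Of 29 macrophage and monocyte markers 12 were lower (41.4%, against 10.9% of all genes) and 4 higher (13.8%, against 15.1%). Chi3l3 (-4.16), the adhesion protein osteopontin (Spp1, -3.79) and arginase 1 (Arg1, -3.26), genes of activated macrophages, fell, and Arg1 went from 11.52, 11.05 and 11.46 to 8.14, 8.15 and 7.96. Gpnmb, a glycoprotein of macrophages and pigment cells, rose from 7.62, 6.96 and 7.53 to 9.33, 9.46 and 9.89, overlapping acetone skin. Among general macrophage markers, the lysosomal protein Cd68 (-1.17, adjusted p = 0.000158) and the mannose receptor Mrc1 (-1.16) fell, and Emr1 gave 0.40 with overlapping arrays (adjusted p = 0.164). Csf1r went upward, by 0.36 on its brightest probe set (adjusted p = 0.0566) and by 0.46 on a dimmer one that passed (adjusted p = 0.0366). The 4 higher markers became 2 without day 4 mouse 1 or day 6 mouse 2. Among chemokine receptors, Ccr7, which guides dendritic cells to lymph nodes, fell by 3.31 and Ccr1 by 3.23, while Xcr1, of cross-presenting dendritic cells, rose by 1.32. Of 20 receptors 3 were higher (15%, near the 15.1% of all genes) and 8 lower (40%), or 5 lower without day 4 mouse 3.

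Langerhans cell and MHC class II genes rose. Cd207 (langerin) went from 7.33, 7.49 and 7.28 to 9.79, 9.29 and 9.24 (2.07 ± 0.39, adjusted p = 0.00039), and H2-Eb1, an MHC class II chain, from 11.45, 11.56 and 11.34 to 12.79, 12.51 and 12.70. Both overlapped acetone skin at day 6. Of 17 such genes 8 were higher (47.1%) and 2 lower (11.8%, near the 10.9% of all genes). Those lower were the costimulator Cd80 (-1.34) and the maturation marker Cd83 (-0.89, adjusted p = 0.0244). Cd83 lost its call on leaving out any array other than day 6 mouse 1 (adjusted p 0.0519 to 0.109). Of 27 T cell and natural killer cell markers 22 did not pass the test. The shares that were higher (11.1%) and lower (7.41%) were below those of all genes (15.1% and 10.9%). The 2 lower ones were the cytotoxic proteases Gzmb (-2.79) and Gzma (-2.34), with 4 lower without day 6 mouse 1. The 3 higher ones were the T cell receptor gene Tcrb-J (0.65), Thy1 (0.64), which fibroblasts also make, and the kinase Lck (0.52). They became 1 without day 4 mouse 3 or day 6 mouse 2. Dimmer probe sets of Tcrb-J (-0.18 to 0.37) and Lck (0.18) did not pass the test.

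Genes induced by type I interferon fell as a broad and moderate group. Of 38 tested, 25 were lower (65.8%, against 10.9% of all genes) and 13 did not pass, with a median of -0.77 and 4 past 3-fold. The list's median difference from acetone skin was 0.30 at day 4 and -0.47 at day 6. Ifit2 (0.14), Mx1 (0.33) and Cmpk2 (0.41) went upward from day 4 to day 6 without passing the test. Ifitm1, a membrane protein that restricts virus entry, went from 12.98, 12.68 and 13.47 to 9.21, 9.22 and 8.73. Oasl1, an inhibitor of interferon production, fell by 2.07 ± 0.26 and the ubiquitin ligase Trim30a by 1.68. The day 6 arrays of Oasl1 (5.72, 5.56 and 5.13) were all below its acetone arrays (5.88 to 6.36). Interferon-γ GTPases and MHC class I genes had 9 of 22 lower (40.9%), led by Iigp1 (-2.15) and Igtp (-1.61). Feedback genes of NF-κB and cytokine signalling were lower in 18 of 22 (81.8%), led by Socs3 (-2.43 ± 0.24), which dampens signalling by IL-6 family receptors.

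The interferon-induced promoters were searched in the same way for GAAA, any 2 bases, then GAAA, a form of the interferon-stimulated response element. It was in 13 of the 26 members with a window (50%) and in 3.99% of all genes. It was in 9 of 17 members that passed the test and in 4 of 9 that did not. Ifit1 and Rsad2, picked after their values were seen, are shown as members that hold it. Ifit1, which binds viral RNA, went from 8.16, 7.60 and 7.77 to 7.13, 5.98 and 6.29, all below its acetone arrays of 7.82 to 8.77. Rsad2 (viperin, an antiviral enzyme) went from 8.78, 8.20 and 8.71 to 7.50, 6.88 and 7.22, also below acetone skin (8.52 to 9.12). The stretches are chr19:34640764-34640883 (Ifit1, plus strand) and chr12:26456493-26456612 (Rsad2, minus strand), with the matches, which lie on the opposite strand, in capitals.
Ifit1: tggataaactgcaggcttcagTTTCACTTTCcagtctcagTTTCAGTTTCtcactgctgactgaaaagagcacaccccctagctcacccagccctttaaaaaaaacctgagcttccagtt
Rsad2: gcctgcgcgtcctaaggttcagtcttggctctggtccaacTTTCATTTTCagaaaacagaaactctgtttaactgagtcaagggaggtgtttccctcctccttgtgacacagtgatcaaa
Ifit1 held 2 matches in this stretch and Rsad2 1.

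Epidermal differentiation genes rose while stress genes fell. Krt10, the keratin of the first suprabasal layers, was at 8.80, 11.07 and 8.21 at day 4 and at 13.89, 13.91 and 14.04 at day 6, beside 13.63, 13.66 and 13.59 in acetone skin. Its partner Krt1 was at 8.84, 10.54 and 8.03 and then at 12.91, 13.39 and 13.36. Day 4 mouse 2 had the highest level of both in its group, and the rises of 4.58 ± 0.42 and 4.08 ± 0.48 became 5.44 and 4.78 without it. Krt77 ranged over 6.49 to 10.74 at day 4 and 12.63 to 13.53 at day 6, a rise of 5.11 that became 6.44 without day 4 mouse 2 and 4.32 without day 4 mouse 3. Krt10 had averaged 13.89 at day 2.

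Of 14 epidermal keratins 7 were higher (50%) and 2 lower (14.3%, against 10.9% of all genes). The lower ones were Krt80 (-0.84) and the basal keratin Krt14 (-0.48, adjusted p = 0.0282), and Krt14 lost its call on leaving out any array other than day 6 mouse 2 (adjusted p 0.0549 to 0.169). Krt5, the basal partner of Krt14, gave 0.18 (adjusted p = 0.392).

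Of 23 late cornified envelope and filaggrin genes 7 were higher (30.4%, against 15.1% of all genes) and 4 lower (17.4%, against 10.9%). The other 12 did not pass the test. Lce3a, Lce3b and Lce3c, of a subfamily known from wounded and psoriatic skin, fell by 4.73, 3.52 and 3.22. The probe sets of Lce3b and Lce3c may share signal with related genes. Lce1m rose from 7.47, 8.70 and 6.86 to 11.16, 10.31 and 11.49, and filaggrin (Flg), which bundles keratin filaments in the cornified layer, from 7.53, 9.02 and 6.04 to 11.01, 11.49 and 11.51. Trichohyalin (Tchh), of the inner root sheath of the hair follicle, rose by 3.34. The rise of Flg was 3.81 ± 0.51, or 4.55 without day 4 mouse 2 and 3.06 without day 4 mouse 3. Flg ended 2.50 above acetone skin (adjusted p = 0.00105).

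Small proline-rich proteins, which stiffen the envelope of stressed epidermis, were lower in 8 of 9 genes (88.9%, against 10.9% of all genes). Of these, 7 were lower by more than 3-fold, and the median of the list was -3.01. Sprr2f was at 13.49, 13.32 and 13.91 at day 4 and at 7.32, 9.01 and 8.66 at day 6. It stayed above the acetone arrays (5.50, 4.11 and 4.90), by a mean of 3.49 (adjusted p = 0.000192). Members of the Sprr2 group are close in sequence, so their probe sets may share signal.

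Several other stress genes were also still above acetone skin at day 6. They were Lce3a (by 3.66), the kallikrein protease Klk6 (3.52), the β-defensin Defb3 (3.14) and the gap junction protein Gjb6 (2.92). From day 4 to day 6 Klk6 had fallen by 2.86, Defb3 by 4.71 and Gjb6 by 3.19. Slpi, an inhibitor of neutrophil elastase, fell by 4.67 and ended 0.82 above acetone skin without passing that test (adjusted p = 0.1). Stress keratins and alarmins had 14 of 20 genes lower (70%, against 10.9% of all genes). The 1 higher gene (5%, against 15.1%) was Mt4, which went from 4.42, 4.75 and 4.13 to 10.54, 10.66 and 10.48.

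**Figure D3:**
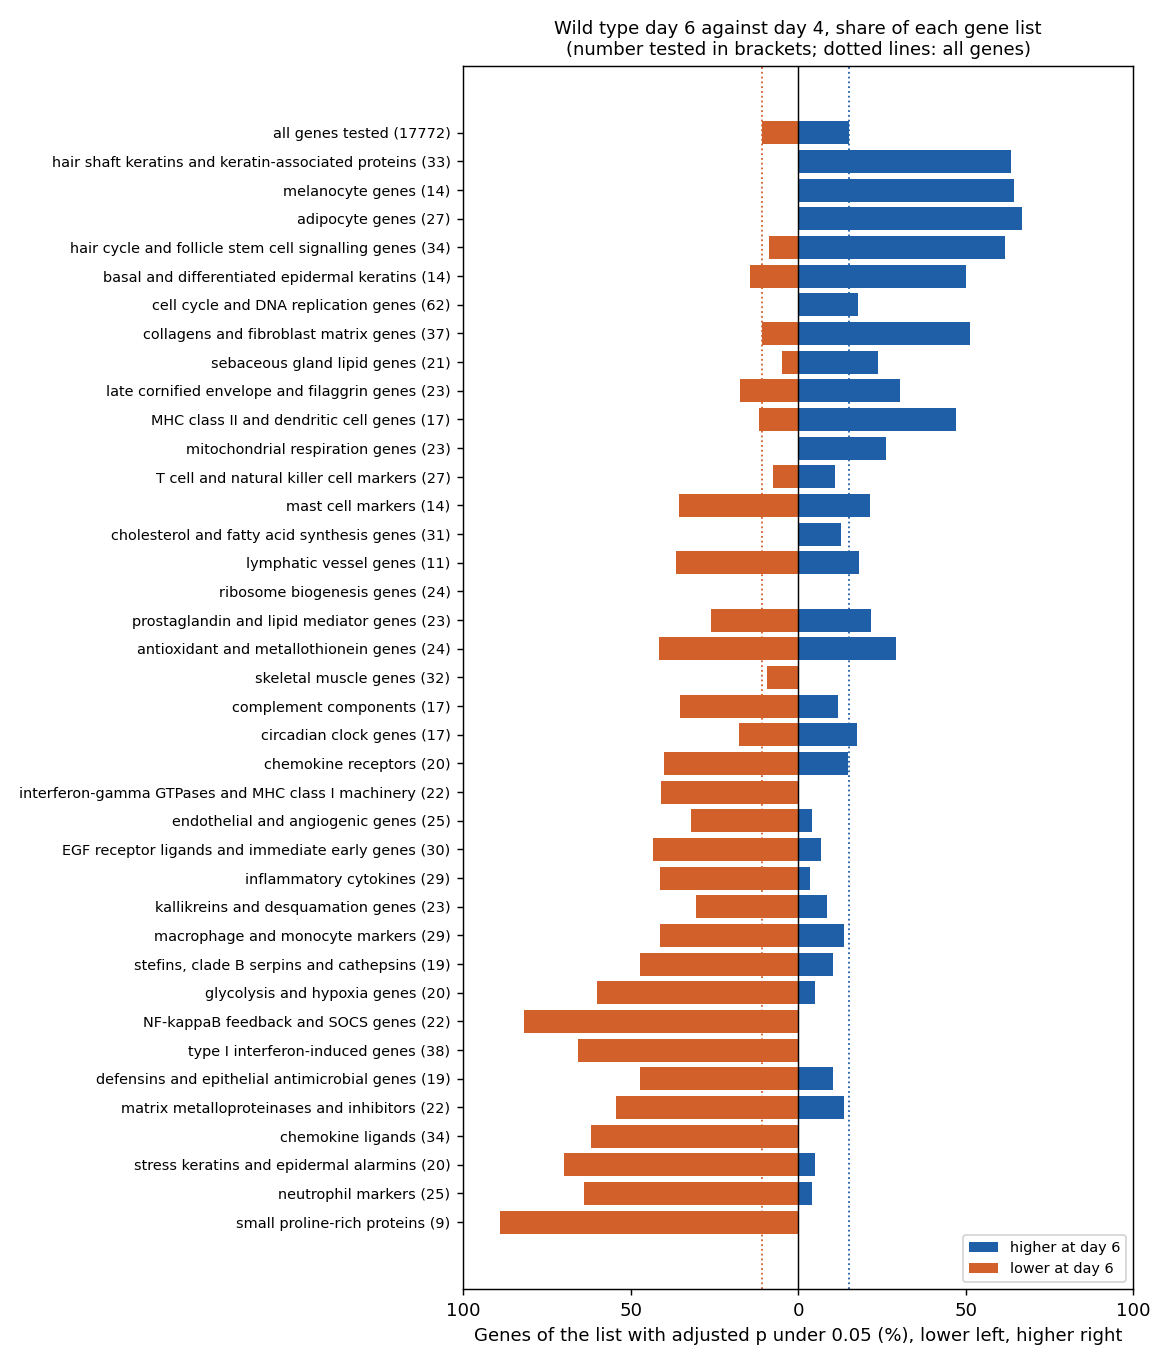
Percent of the genes of each list that were higher (blue, to the right) or lower (orange, to the left) at day 6 with an adjusted p under 0.05, for the lists with at least 9 tested genes, ordered by median change. The dotted lines give the shares over all 17772 genes, 15.1% and 10.9%, and small proline-rich proteins, with 8 of 9 lower, lie at the bottom. The list labelled hair shaft also holds inner root sheath keratins.

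Of 22 matrix metalloproteinases and inhibitors 12 were lower (54.5%) and 3 higher (13.6%, near the 15.1% of all genes). Mmp13 went from 10.73, 10.73 and 11.44 to 5.60, 4.63 and 5.72, and the neutrophil collagenase Mmp8 (-4.95) and the gelatinase Mmp9 (-4.08) fell too. The higher genes were the inhibitors Timp3 (2.41 ± 0.25, adjusted p = 1.7e-07) and Timp4 (1.87) and the metalloproteinase Mmp11 (1.57). Timp3 was at 9.28, 9.28 and 8.72 at day 4 and at 11.57, 11.47 and 11.47 at day 6.

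Collagens and fibroblast matrix genes were higher in 19 of 37 (51.4%) and lower in 4 (10.8%, near the 10.9% of all genes). Thbs2 (2.07), fibromodulin (Fmod, 1.89), Col5a1 (1.51) and Col1a1 (1.37) rose. A dimmer Col1a1 probe set gave 0.74 and did not pass (limma adjusted p = 0.0837). The other fibroblast markers were mixed. Col1a2 (0.55) and Lum (0.46) rose, Pdgfra fell (-0.50, limma adjusted p = 0.0171) and Dcn gave -0.11 (limma adjusted p = 0.388). Tenascin C (Tnc), a matrix protein of wounds, fell from 12.30, 12.02 and 12.39 to 7.90, 8.92 and 8.75 and was still 2.32 above acetone skin. Adipocyte genes were higher in 18 of 27 (66.7%, against 15.1% of all genes), or 11 without day 4 mouse 3. Adiponectin (Adipoq) rose from 12.74, 12.85 and 12.17 to 13.87, 13.59 and 13.89, overlapping acetone skin.

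Of 23 prostaglandin and lipid mediator genes 12 did not pass the test. Higher were 5 (21.7%, against 15.1% of all genes) and lower 6 (26.1%, against 10.9%). Ptgs2 (cyclooxygenase 2), the inducible enzyme of prostaglandin synthesis, went from a mean of 8.64 to 4.86 (-3.78 ± 0.49), with no overlap. Hpgd, which degrades prostaglandins, rose from 7.82, 8.30 and 7.97 to 9.90, 10.06 and 9.93. The lipoxygenases Alox8 and Alox12e changed by -3.07 and 2.83. Of 24 antioxidant and metallothionein genes 7 were higher (29.2%) and 10 lower (41.7%). Haem oxygenase 1 (Hmox1) fell by 2.31, the cystine transporter Slc7a11 by 2.56 and the hypoxia-induced peptide adrenomedullin (Adm) by 2.99. Among glutathione transferases Gsta2 (3.20) and Gsta3 (2.49) rose and Gsta4 (-2.85) fell. Glycolysis and hypoxia genes were lower in 12 of 20 (60%, against 10.9% of all genes).

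Hair follicle genes rose from low levels. Krt25 was at 3.54, 4.28 and 3.83 at day 4 and at 11.40, 12.80 and 12.72 at day 6 (8.43 ± 0.46, adjusted p = 1.08e-11). Krt71 went from 5.47, 6.08 and 5.78 to 10.41, 12.05 and 11.80 and Krt35 from 4.08, 3.71 and 4.16 to 10.01, 11.31 and 11.24. In each, day 6 mouse 1 was the lowest of its group and far above every day 4 array. The list of hair shaft keratins and keratin-associated proteins also holds inner root sheath keratins such as Krt25. Of its 33 tested genes, 21 were higher at day 6 (63.6%, against 15.1% of all genes), all 21 by more than 3-fold. The other 12 did not pass and the median change was 3.09. On the array were 40 of the listed genes, and the intensity filter left out those not tested. That filter used the mean over all arrays, so a gene dim at day 4 could pass it through its bright groups.

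Signalling genes of the follicle rose with them. Sonic hedgehog (Shh), which drives follicle growth, went from 5.43, 5.19 and 5.63 to 8.25, 9.86 and 9.38, and its target Gli1 from 4.59, 4.54 and 4.58 to 6.48, 7.63 and 7.36. The follicle progenitor factor Lhx2 rose by 3.80 ± 0.43. The growth factor Fgf7 fell by 1.34 and the matricellular protein Ctgf by 2.18. Of 34 genes of the hair cycle 21 were higher (61.8%) and 3 lower (8.82%, near the 10.9% of all genes).

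The follicle genes were high at day 1 as well as at day 6. Krt25 averaged 3.84 at day 0, 11.50 at day 1, 3.88 at day 2, 3.88 at day 4 and 12.31 at day 6 in wild type skin, and 4.07, 12.46, 3.82, 4.19 and 12.83 in D6-deficient skin. Shh averaged 5.20, 8.79, 5.44, 5.42 and 9.16 in wild type skin. The summed linear intensity of the 33 listed hair genes was 1107 to 1184 at day 0 and 4047 to 22430 at day 1. It was 1168 to 1261 at day 2, 1771 to 2873 at day 4 and 11727 to 31592 at day 6. The labels give no hair cycle stage for the mice, so time after TPA and follicle stage cannot be told apart.

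**Figure D4:**
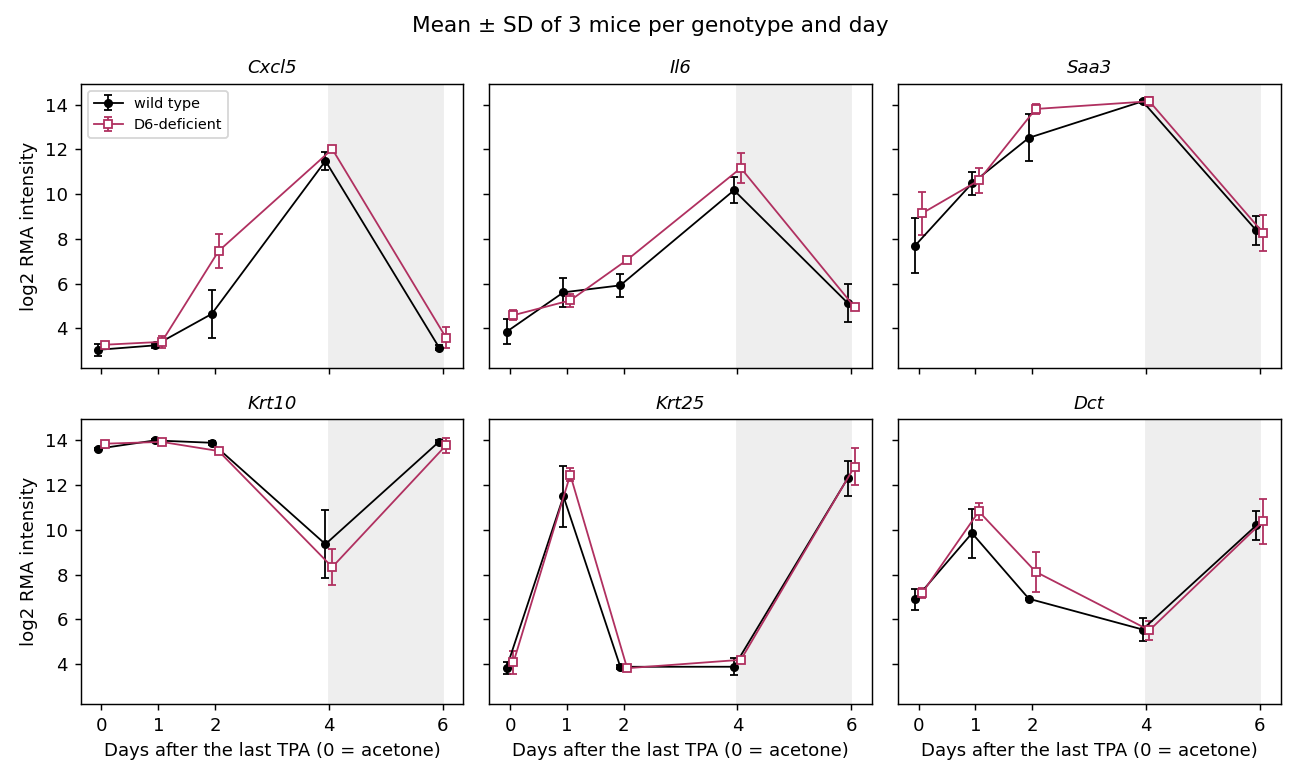
Mean ± SD (n = 3) of log2 RMA intensity over days 0 (acetone), 1, 2, 4 and 6 for 6 genes in wild type (filled circles) and D6-deficient (open squares) skin, with days 4 to 6 shaded. Cxcl5, Il6 and Saa3 peak at day 4 and Krt10 is lowest there, while Krt25 and Dct are high at days 1 and 6.

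Pigment genes rose too. Dct, a melanin enzyme that acts on dopachrome, went from 5.68, 5.98 and 4.98 to 9.57, 10.83 and 10.20 (4.65 ± 0.49, adjusted p = 2.12e-07), and had averaged 9.85 at day 1. Tyrosinase (Tyr), the first enzyme of melanin synthesis, went from 3.82, 3.64 and 3.75 to 7.21, 8.60 and 7.88, with no overlap. Its day 4 level was close to the lowest mean kept (3.72), so the size of its rise is uncertain. Tyrp1 rose by 4.30 and the melanosome matrix protein Pmel (Si on the array) by 4.34. Of 14 melanocyte genes 9 were higher (64.3%, against 15.1% of all genes) and 5 did not pass (median 1.16).

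The promoters of Tyr, Tyrp1 and Dct are shown because they share TCATGTG, the core of the M-box read by the pigment cell factor Mitf. Searched on both strands, it was in 4 of the 9 melanocyte genes with a window (44.4%), the other being Trpm1, and in 4.31% of all genes. Mitf, which was picked after its value was seen, rose by 0.33 ± 0.11 (adjusted p = 0.0375). The stretches are chr7:87493463-87493582 (Tyr, minus strand), chr4:80834126-80834245 (Tyrp1, plus strand) and chr14:118052318-118052437 (Dct, minus strand), with the match in capitals.
Tyr: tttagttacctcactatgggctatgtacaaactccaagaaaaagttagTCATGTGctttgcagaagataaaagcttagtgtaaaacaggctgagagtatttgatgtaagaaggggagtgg
Tyrp1: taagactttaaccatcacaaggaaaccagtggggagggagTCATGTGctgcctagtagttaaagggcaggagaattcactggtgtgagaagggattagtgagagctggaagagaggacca
Dct: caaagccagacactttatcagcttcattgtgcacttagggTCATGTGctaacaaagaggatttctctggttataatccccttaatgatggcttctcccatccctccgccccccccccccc
In all 3 the letters run in the direction of the gene.

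Of 62 cell cycle genes 11 were higher (17.7%, near the 15.1% of all genes), with a median of 0.54, and the number rested on single arrays. It was 3 without day 4 mouse 1, 20 without day 4 mouse 2, 2 without day 4 mouse 3, 3 without day 6 mouse 2 and 7 without day 6 mouse 3. Kif11, a motor of the mitotic spindle, went from 5.93, 7.03 and 5.64 to 7.06, 8.00 and 7.70, and its adjusted p of 0.00605 became 0.0562 without day 4 mouse 3. Dimmer Kif11 probe sets gave 0.67 and 0.94 with overlapping arrays and did not pass (limma adjusted p = 0.202 and 0.0716).

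Of 32 skeletal muscle genes 3 were lower (9.4%, near the 10.9% of all genes). The number was 0 without day 6 mouse 2 and 5 without day 6 mouse 3. The summed intensity of the 32 overlapped between the days (122014 to 142931 and 97752 to 138159). Acta1 gave -0.11 (adjusted p = 0.633). Of 17 circadian clock genes 3 were higher (17.6%, near the 15.1% of all genes) and 3 lower (17.6%, against 10.9%). On their brightest probe sets Arntl gave 0.99 and Dbp -1.14. The part of the hour of sampling was not tested.

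Of 25 endothelial and angiogenic genes 8 were lower (32%, against 10.9% of all genes) and 1 was higher (4%, against 15.1%). The adhesion receptors Selp (-1.42) and Sele (-1.09) and the adhesion molecule Icam2 (-0.89) fell, and von Willebrand factor (Vwf, 1.02) rose. The lower ones became 5 without day 6 mouse 2 or 3, and Sele lost its call without day 6 mouse 3 (adjusted p = 0.0677). Pecam1 (-0.53, adjusted p = 0.0612) and the brightest probe set of Cdh5 (-0.44, adjusted p = 0.0931) did not pass the test, while a dimmer Cdh5 probe set did (-0.61, adjusted p = 0.00561). Of 11 lymphatic vessel genes 4 were lower (36.4%), or 2 without day 4 mouse 3 or day 6 mouse 3. Higher were 2 (18.2%, near the 15.1% of all genes). Only 1 was higher without day 4 mouse 1, day 4 mouse 3, day 6 mouse 1 or day 6 mouse 3. Podoplanin (Pdpn, also of keratinocytes and fibroblasts) fell by 2.02 and the growth factor Figf by 1.81, multimerin 1 (Mmrn1) rose by 1.95, and Lyve1 (-0.38, adjusted p = 0.708) did not pass the test.

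The 5 red blood cell genes tested summed to 366 to 782 at day 4 and 178 to 236 at day 6, and the part of blood in the other results was not tested. Of 14 mast cell markers 3 were higher (21.4%, against 15.1% of all genes) and 5 lower (35.7%, against 10.9%). Histidine decarboxylase (Hdc, also of myeloid cells) fell by 3.02, the basophil protease Mcpt8 by 2.25 and the IgE receptor chain Fcer1a by 1.72. Kit (0.80, also of melanocytes), the tryptase Tpsb2 (0.60) and the IgE receptor chain Ms4a2 (0.56) rose, but without day 4 mouse 1, day 4 mouse 3, day 6 mouse 1 or day 6 mouse 2 only 1 gene was higher. Dimmer probe sets of Kit (0.23, limma adjusted p = 0.436) and Ms4a2 (0.26, limma adjusted p = 0.591) did not pass. The 5 lower became 3 without day 4 mouse 3 or day 6 mouse 3, and Fcer1a lost its call without day 4 mouse 1 (change -1.42) or day 6 mouse 3 (-1.12). The proteases Cma1 (0.19), Mcpt4 (0.18) and Cpa3 (0.34) did not pass the test.

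D6-deficient skin, on other arrays, changed in a similar way. There 567 probe sets were higher (1.57%) and 562 lower (1.56%) by more than 3-fold. Called in both genotypes in the same direction were 567 probe sets, 77.6% of the wild type calls and 50.2% of the D6-deficient ones, and 0 were called in opposite directions. Over 36029 probe sets the changes had Pearson's r of 0.868 and Spearman's rho of 0.763, given as a description, since probe sets of a gene are not independent and all arrays were normalized together. Cxcl5 changed by -8.43 in D6-deficient skin (-8.34 in wild type), Il6 by -6.21 (-5.04), Krt10 by 5.44 (4.58) and Krt25 by 8.64 (8.43).

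Tested directly, the change differed between the genotypes for 13 probe sets (0.0361%), 6 of them by more than 3-fold (0.0167%), with 2782 at an unadjusted p under 0.05. A530023O14Rik fell by 2.82 in wild type skin, from 6.55, 5.80 and 7.46 to 3.76, 3.84 and 3.73, and gave 0.26 in D6-deficient skin. Its wild type day 6 arrays were close to the lowest mean kept (3.72), so the size of that fall is uncertain. Cxcl9, a T cell chemokine induced by interferon-γ, changed on a dim probe set by -4.51 in D6-deficient and by -1.85 in wild type skin, a difference of -2.66 ± 0.46 (adjusted p = 0.0336). On the brightest Cxcl9 probe set the wild type change was -2.29, and the difference of -2.05 did not pass the test (adjusted p = 0.305). The difference on the dim probe set did not pass without wild type day 4 mouse 2 or 3, wild type day 6 mouse 1 or 3, D6-deficient day 4 mouse 2 or 3, or D6-deficient day 6 mouse 1 (adjusted p 0.0672 to 0.123). With only the 12 arrays of both genotypes and days in the fit, 0 probe sets passed with more than 3-fold.

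**Figure D5:**
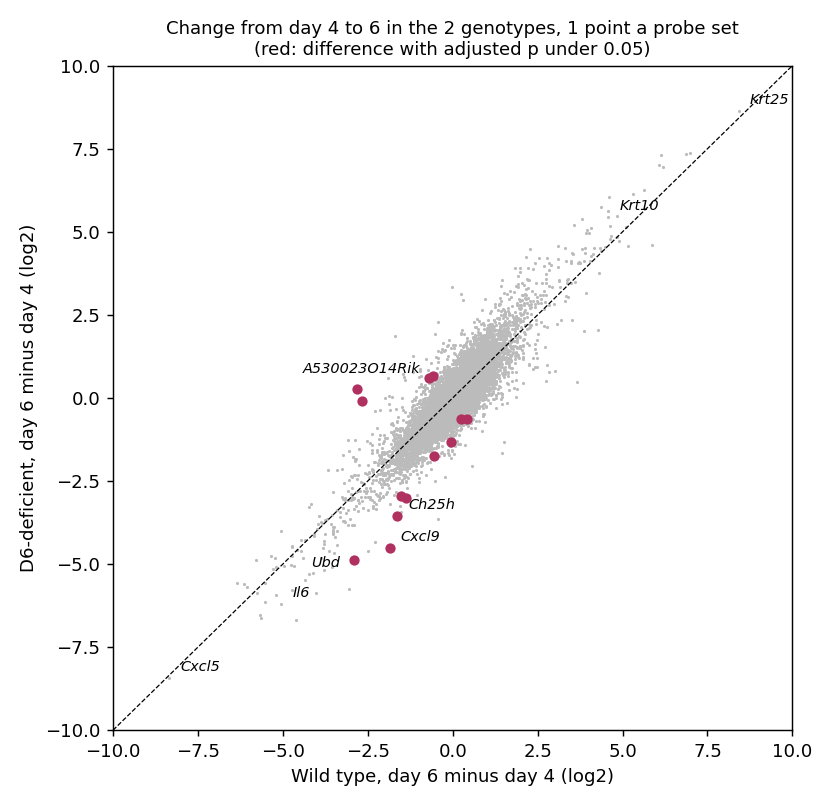
Change from day 4 to day 6 on the log2 scale in wild type (x axis) and D6-deficient skin (y axis), 1 point for each of 36029 probe sets, with equal change as a dashed line. Krt25, Krt10, Il6 and Cxcl5 lie near the line, and the 13 probe sets whose change differed with an adjusted p under 0.05 are in red.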

How the data were processed

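RNA of whole back skin was hybridised to Affymetrix Mouse430_2 arrays, 3 mice per genotype and day, each sample from its own mouse as the study's methods state. The authors normalized all 30 arrays together by robust multiarray averaging (RMA, per the labels) in GeneSpring GX and deposited 1 linear intensity per probe set. RMA with quantile normalization gives every array about the same distribution, so a change is relative to the rest of the array. The number of arrays limits the precision, and 3 against 3 arrays cannot give an exact permutation p under 0.1. The second deposited table held only a sample sheet and was not used.

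Intensities were put on the log2 scale. The 64 control probe sets and the lowest 20% by mean (9008) were left out. With limma version 3.58.1 (R 4.3.3, lmFit and eBayes, two-sided), every group of the 30 arrays got its own mean and all shared 1 estimate of the spread, with Benjamini-Hochberg adjustment over 36029 probe sets. Errors of changes are standard errors from this fit. A call was an adjusted p under 0.05 with more than 3-fold, the fold the study used. The test was tried on simulated data first. A gene stands for its brightest probe set with 1 symbol. Genes listed by shared probe sets only, such as Il22, were left out of the lists. One probe set whose change differed between the genotypes is not reported here.

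The text names the 12 largest increases and decreases among calls with non-overlapping arrays (by the probe set with the largest change), up to 3 genes per list and direction, the largest differences between genotypes, cell type markers, and cytokines. The members, lists and motifs were chosen with earlier results of these data known. Promoters are RefSeq sequences of build GRCm38.p6, matched by gene identifier. The alternatives were other sets of arrays, filters, scaling, array weights, an intensity trend, the replicate number as a block, hybridization controls as a covariate, other fold thresholds, the methods' t-test and leaving out each array.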

Additional observations from a re-analysis of the deposited data

Results flagged for a closer look

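The change from day 4 to day 6 differed between the genotypes for 13 probe sets in the limma interaction test, given here as the D6-deficient change minus the wild type change on the log2 scale for the 12 that differed by more than 2-fold. It was 3.09 for A530023O14Rik, 2.58 for a probe set without a symbol, and 1.31 and 1.22 for both probe sets of 4930444A02Rik. In wild type skin these changed by -2.82, -2.68, -0.70 and -0.56, and in D6-deficient skin by 0.26, -0.10, 0.61 and 0.65. It was -1.04 for Pdgfb, which gave 0.41 in wild type and -0.63 in D6-deficient skin. Elfn1 gave -1.20, Trp53inp2 -1.28, Gpr182 -1.41, Cited1 -1.64, Ch25h -1.92, Ubd -1.97 and Cxcl9 -2.66, and each changed further downward in D6-deficient skin. Adjusted p-values ranged from 0.000163 to 0.0477. A brighter Cxcl9 probe set gave -2.05 and a dimmer Trp53inp2 probe set -0.35, and neither passed the limma interaction test (adjusted p = 0.305 and 0.758).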

How the results depend on the processing

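The wild type counts, 336 probe sets higher and 395 lower, stayed within 1.5 times under the other sets of arrays, filters, scaling, trend, weights, hybridization controls and replicate block (336 and 396). They moved to 4343 and 3613 with no fold threshold, to 932 and 1013 at 2-fold, and to 143 and 252 with the methods' t-test after Benjamini-Hochberg adjustment. Leaving out 1 array gave 284 to 414 higher and 353 to 480 lower, and 487 to 727 and 548 to 617 in D6-deficient skin. Genes of all lists gave 179 higher and 257 lower, and 127 to 187 and 233 to 253 with 1 array left out.

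The 6 probe sets whose change differed between genotypes by more than 3-fold depended on the fit. They became 0 with only the arrays of the contrast, 0 with the lowest 50% left out, 2 with the replicate block, 2 with hybridization controls as a covariate, 13 with no fold threshold and 12 at 2-fold, and 2 to 10 with 1 array left out. The cause was not tested. Same-numbered day 4 and day 6 arrays deviated from their group means with correlations of 0.13, -0.04 and -0.11, so the numbers were not taken to pair the mice.

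Among genes that had not passed the test, Flt4 changed sign to -0.027 and Il20 to 0.0036 with array weights. With 1 array left out, Flt4 ranged from -0.23 to 0.23, Tek from -0.14 to 0.23, Il15 from -0.10 to 0.18, Lyve1 from -0.76 to 0.078 and Il20 from -0.12 to 0.082. Hybridization controls split the 6 arrays into 4 and 2, with both days in each. The 2 were day 4 mouse 2 and day 6 mouse 1, so that set rests on 1 array per day. Of 731 called probe sets, 439 were over 3-fold in both sets. The same sign in both (730) adds no support, since it follows wherever the arrays of the days do not overlap (728). Centring each array on its median moved the median change by 0.00085. Dim probe sets near the lowest mean kept (3.72) carry the least signal over background.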
